A study of Mus musculus with 6 samples.

Results

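The BCL2 family genes that set the threshold of mitochondrial cell death were compared between bone marrow stem and progenitor cells that differ in their labelled dose of the transcription factor gene Erg. The family was taken as 10 genes in 3 roles. The guardians are Bcl2, Bcl2l1 and Mcl1, the effectors Bax and Bak1, and the BH3-only members Bid, Bad, Bcl2l11, Bbc3 and Bmf. Every probe set that the array's probe table assigns to one of these symbols alone was included, which gave 31 of 45037 probe sets and covered 9 of the 10 genes. Of these, 15 belonged to guardians, 2 to the effector Bak1 and 14 to BH3-only members. The probe table names no probe set for Bax, whose level was not analysed here.

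Both populations came from adult mice of mixed 129-B6 background with the genotype Mx1Cre;Ergkd/+;R26Y, so every group shares a heterozygous Erg knockdown allele, an interferon-inducible Cre transgene and a Rosa26 reporter of yellow fluorescent protein (YFP). YFP-positive cells are labelled as Erg-restored and YFP-negative cells as Erg-knockdown, with a labelled reduction of about 40%. Cells were sorted inside the LSK gate (lineage-negative, Sca-1 and c-Kit positive), which holds stem cells and early progenitors together. Affymetrix mouse genome 430 2.0 arrays were run on 1 sample of each population from each of 3 mice (278, 279 and 281), 6 arrays in all. YFP marks cells in which Cre acted at Rosa26, so Cre action itself and the labelled dose of Erg go together in every sample and cannot be told apart.

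BCL2 family proteins meet at the outer mitochondrial membrane. Guardians hold the effectors BAX and BAK in check, BH3-only proteins are raised or activated by stress and occupy the groove of the guardians or engage the effectors directly, and freed effectors open pores that release cytochrome c and start the caspase cascade. Hematopoietic stem cells depend on MCL1 for survival, and BIM (the product of Bcl2l11) is a main trigger of death when blood cells lose cytokine support.

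ERG belongs to the ETS factors, which bind DNA around the core GGAA (TTCC on the other strand). For the genes on which the results below turn, the 250 bases before the most upstream start in a table of RefSeq start sites (GRCm38.p6) are given 5′ to 3′, with each GGAA or TTCC in capitals.
Bcl2, chr1:106714291-106714540, minus strand: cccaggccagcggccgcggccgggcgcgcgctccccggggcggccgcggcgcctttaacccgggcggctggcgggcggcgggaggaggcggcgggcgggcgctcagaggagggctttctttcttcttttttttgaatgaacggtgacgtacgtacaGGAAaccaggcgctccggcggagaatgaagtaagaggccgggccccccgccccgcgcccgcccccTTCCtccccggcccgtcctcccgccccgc
Mcl1, chr3:95658471-95658720, plus strand: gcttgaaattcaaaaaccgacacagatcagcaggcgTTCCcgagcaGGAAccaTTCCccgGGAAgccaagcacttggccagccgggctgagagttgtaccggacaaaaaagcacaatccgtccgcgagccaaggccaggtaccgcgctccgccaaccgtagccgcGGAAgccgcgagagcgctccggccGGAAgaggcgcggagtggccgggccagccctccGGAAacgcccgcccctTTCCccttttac
Bcl2l11, chr2:128125788-128126037, plus strand: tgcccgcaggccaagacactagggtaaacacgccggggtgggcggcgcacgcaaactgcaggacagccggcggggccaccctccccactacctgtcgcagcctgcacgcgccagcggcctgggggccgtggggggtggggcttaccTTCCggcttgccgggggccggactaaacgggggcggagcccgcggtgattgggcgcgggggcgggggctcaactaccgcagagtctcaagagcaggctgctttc
Bad, chr19:6941611-6941860, plus strand: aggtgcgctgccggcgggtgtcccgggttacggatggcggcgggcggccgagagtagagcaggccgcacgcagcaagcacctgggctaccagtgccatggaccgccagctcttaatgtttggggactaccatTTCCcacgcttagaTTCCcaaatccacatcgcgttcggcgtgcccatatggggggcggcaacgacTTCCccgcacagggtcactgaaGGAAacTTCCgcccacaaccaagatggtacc
The Mcl1 window lies within the gene's RefSeq record, which begins further upstream, and the others abut the start of theirs. The windows held 2 such cores for Bcl2, 8 for Mcl1, 1 for Bcl2l11 and 5 for Bad. The core is common, since 93.4% of all 32851 windows of the same length hold it on either strand, with a median of 3. The longer ETS site CCGGAAGT, searched on both strands and containing the core, occurs in 2.88% of windows and in none of those listed for the 10 genes. A match in these windows is a description of the letters, not a measured binding site.

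For Erg itself no difference between the populations passed the test. Its probe set 1440244_at read 2764 ± 124 in restored-labelled and 2810 ± 140 in knockdown-labelled cells, and 1425370_a_at read 1696 ± 159 and 1573 ± 245 (SD, n = 3 arrays each). The log2 differences were 0.024 ± 0.089 and -0.11 ± 0.088 (SE; limma adjusted p = 0.954 and 0.818). Their 95% intervals ran from 0.855-fold to 1.208-fold and from 0.779-fold to 1.095-fold. Neither interval reaches the labelled reduction of about 40%, so the arrays do not show it at these probe sets. Whether these probe sets can read the altered allele was not tested, so the groups are called restored-labelled and knockdown-labelled. All 6 LSK markers with a named probe set (Kit, Cd34, Flt3, Procr, Slamf1 and Meis1) lay above the filter on low values on average. Their summed level was higher in the knockdown-labelled sample of all 3 mice without overlap, at 24670, 23940 and 23940 against 27090, 26710 and 24940. Kit, Cd34, Flt3, Procr and Meis1 were each higher in all 3 mice, where 20.8% of tested probe sets were. Slamf1, the dimmest of the 6, was higher in mouse 278 but lower in mice 279 and 281, at 393, 577 and 487 against 546, 224 and 303. The median intensity of the whole array was also higher in the knockdown-labelled sample of each mouse. Of 6 macrophage markers, 4 lay above the filter, and their sums overlapped (3324 to 4334 against 2051 to 4021). The macrophage marker C1qb was lower in all 3 mice, at 398, 908 and 170 against 115, 214 and 116. Over the table, 10.4% of tested probe sets were. C1qa and C1qc, both below the filter, were also lower in every mouse. The other macrophage markers, Adgre1, Vcam1 and Cd68, were lower in mice 278 and 281 but higher in mouse 279. The part of these markers in the results below was not tested. The summed level of 6 neutrophil markers ran from 15980 to 40840 in restored-labelled and from 23270 to 44620 in knockdown-labelled samples, with the lowest and the highest sum both in mouse 279. Of 5 B cell markers only Cd79b lay above the filter, and Pax5 read 0 on at least 1 array. Megakaryocyte markers, all 5 above the filter, had sums of 8764 to 11510 in restored-labelled and 8114 to 9287 in knockdown-labelled samples. Pf4, Itga2b and Gp5 were each lower in all 3 mice, where 10.4% of tested probe sets were. Gp9 was lower in mice 279 and 281, and Ppbp in mouse 281 alone. Erythroid sums (4 markers) were 1254 to 3476 and 1022 to 4220. For 6 T and NK markers they were 9304 to 10400 and 8696 to 10130. The part of these lists was not tested. The 3′ over 5′ log2 ratio of the control transcripts was 0.706 for the restored-labelled sample of mouse 279 and 0.470 to 0.539 for the others. That array gave the highest or lowest of the 6 values for 13 of the 26 family probe sets tested (50.0%) and for 58.1% of all probe sets. The knockdown-labelled array of the same mouse did so for 14 family probe sets (53.8%), against 35.1% of all. In these bulk samples, fewer cells of a type and less RNA per cell cannot be told apart.

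No BCL2 family gene passed the test between the populations. Differences are given as knockdown-labelled minus restored-labelled on the scale log2(intensity + 16), from a paired limma fit with the mouse as a block. Of the 31 probe sets, 26 had a mean intensity at or above 149, the median of all probe sets, and were tested among 22519. The lowest mean among those tested was 177 (Bcl2l11 1435449_at) and the highest among the 5 left untested was 138 (Bcl2l11 1456006_at). None reached an adjusted p below 0.05 after Benjamini-Hochberg adjustment, as was true of the whole table (0 of 22519, or 0.0%). At unadjusted p below 0.05 there was 1 family probe set, of Bcl2l11 and on the higher side, where 6.07% of all probe sets stood (4.75% higher and 1.32% lower). Of the 26, 15 were higher and 11 lower with a median of 0.013, against 54.9% higher and a median of 0.020 over the table. All 3 mice were higher at 6 (23.1%) and lower at 3 (11.5%), where the table has 20.8% and 10.4%. The groups did not overlap at 5 of the 26, where the table has 14.0%. Of these, 2 were on the higher side, where the table has 9.63%, and 3 on the lower side (11.5%), where it has 4.36%; the latter are both probe sets of Bad and 1 of Mcl1. Over all 31, dim ones included, 9 were higher in all mice and 3 lower, against 18.6% and 10.3% of the 45037. Of these 31, 7 had groups without overlap, 4 higher and 3 lower, against 12.2% (8.11% and 4.10%). The tested probe sets' shares higher or lower in all 3 mice lie near the background.

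**Figure D1:**
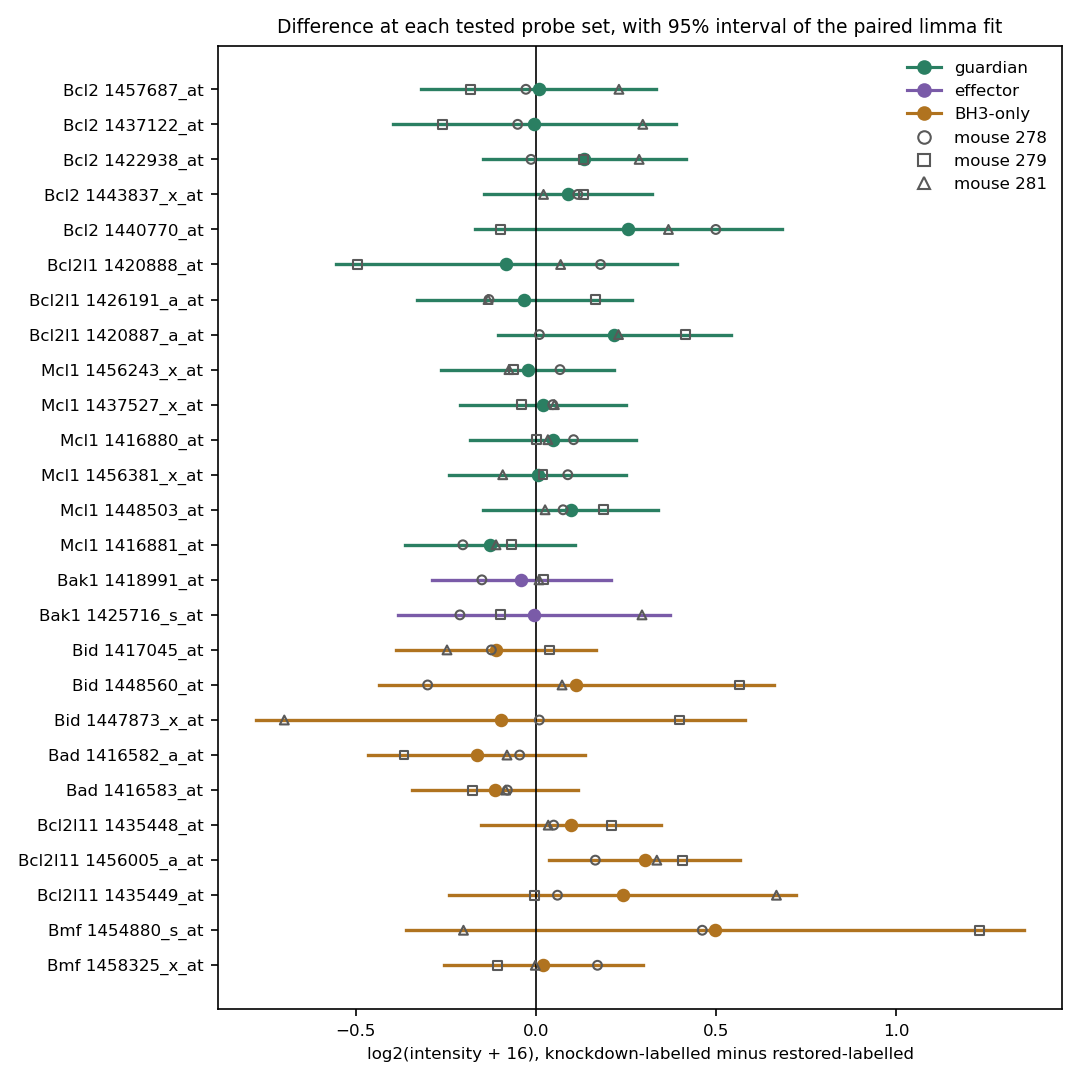
Log2 difference (knockdown-labelled minus restored-labelled) at the 26 tested probe sets of the family. Filled points are the estimates of the paired limma fit, lines their 95% intervals and open symbols the 3 mice; the interval of 1 probe set, Bcl2l11 1456005_a_at, lies above 0, and its adjusted p was 0.799.

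Among the guardians, Bcl2, whose protein keeps lymphoid and early progenitor cells alive, was read by 5 probe sets. At the brightest, 1457687_at, the restored-labelled arrays of mice 278, 279 and 281 read 4281, 3969 and 3655 and the knockdown-labelled arrays 4198, 3498 and 4289. The groups overlapped, with mouse 281 higher and the others lower in knockdown-labelled cells. The difference was 0.0067 ± 0.12 (SE; limma adjusted p = 0.992), with an interval of -0.32 to 0.33. Probe set 1437122_at ran the same way in each mouse, at -0.051, -0.26 and 0.30. The dimmer probe sets 1440770_at and 1422938_at had estimates of 0.26 ± 0.15 and 0.13 ± 0.10, which did not pass. The level of 1440770_at was 863, 757 and 906 in restored-labelled cells and 1226, 705 and 1173 in knockdown-labelled cells. Mouse 279 was the exception there, at -0.10 where the other mice gave 0.50 and 0.37. The estimate was 0.13 without mouse 278 and 0.43 without mouse 279, and that of 1422938_at was 0.21 without mouse 278 and 0.058 without mouse 281. Probe set 1443837_x_at was higher in all 3 mice, by 0.12, 0.13 and 0.020, but its mean difference was -0.017 with each array centred on its median. Averaged over the 5 probe sets, Bcl2 gave 0.10, -0.056 and 0.24 in the mice.

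Bcl2l1 encodes BCL-XL, the guardian that maturing erythroid cells and platelets rely on, and a shorter splice form that promotes death. Its 4 probe sets were not assigned to either form here, and their differences did not share a sign. The brightest, 1420888_at, read 1904, 2573 and 2192 in restored-labelled and 2157, 1820 and 2299 in knockdown-labelled cells, a difference of -0.083 ± 0.17 (limma adjusted p = 0.911). Mouse 279 stood against the other mice, at -0.50 beside 0.18 and 0.068. Without mouse 279 the difference was 0.12. Probe set 1420887_a_at was higher in all 3 mice, by 0.0091, 0.41 and 0.23, from readings of 258, 149 and 221 to 259, 204 and 261. Its difference of 0.22 ± 0.12 was 0.0095 in an unpaired fit of 5 arrays that left out the restored-labelled sample of mouse 279. That sample was the highest of the 6 at one probe set of this gene and the lowest at the other. Probe set 1426191_a_at gave -0.033 ± 0.11, and 1426050_at read 9.18 to 33.9 over the arrays and was not tested.

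Mcl1, a guardian with a short-lived protein, had the smallest median spread over its probe sets of the 9 genes. Its 6 probe sets had a standard deviation over the 6 arrays of 0.041 to 0.085 on the log2 scale, where the median tested probe set had 0.18. They are bright, at percentiles 80.6 to 98.2 of mean intensity, while that median covers all tested levels. Other bright genes spread as little, such as Vdac3 (0.034), Birc5 (0.040) and Foxo3 (0.051), and some more, such as Vdac2 (0.10) and Usp9x (0.12). At 1456243_x_at the restored-labelled arrays read 7464, 8102 and 7715 and the knockdown-labelled arrays 7815, 7758 and 7322. The difference of -0.024 ± 0.086 has an interval that runs from 0.83-fold to 1.16-fold. The probe sets 1437527_x_at, 1416880_at and 1456381_x_at gave 0.019, 0.046 and 0.0047. At the remaining probe sets the groups did not overlap, in opposite directions. Probe set 1448503_at read 4933, 4605 and 4875 against 5196, 5244 and 4960 and differed by 0.095 ± 0.087, or by -0.011 with centred arrays. Probe set 1416881_at read 1797, 1819 and 1782 against 1559, 1734 and 1649 and differed by -0.13 ± 0.084. Averaged over its probe sets, Mcl1 gave 0.029, 0.0062 and -0.029 in mice 278, 279 and 281.

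**Figure D2:**
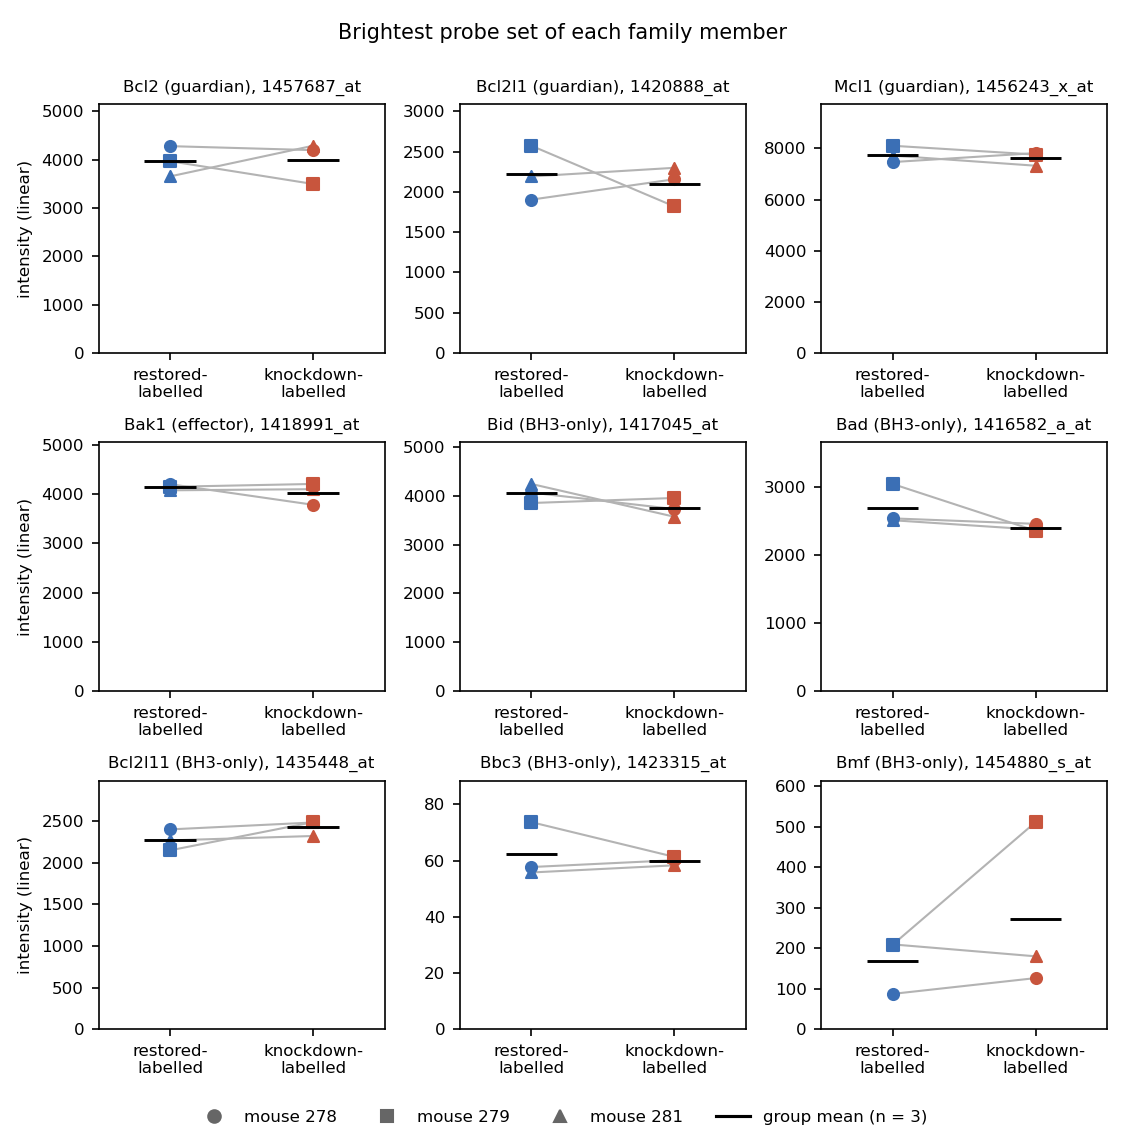
Linear intensity of the brightest probe set of each of the 9 genes in the restored-labelled (blue) and knockdown-labelled (red) samples. Symbols mark the mice, grey lines join samples of a mouse and black bars are means of 3 arrays; the axes start at 0 and differ between panels. The groups overlap in every panel except that of Bad, where the knockdown-labelled samples lie between 2354 and 2455 and the restored-labelled ones between 2508 and 3040.

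The effector gene Bak1, which encodes a pore-forming protein resident in the mitochondrial membrane, gave estimates near 0. Its probe set 1418991_at read 4202, 4149 and 4078 in restored-labelled and 3784, 4207 and 4101 in knockdown-labelled cells. Mouse 278 alone was lower, at -0.15, and the fit gave -0.041 ± 0.089 (limma adjusted p = 0.917), with an interval from 0.82-fold to 1.15-fold. Probe set 1425716_s_at gave -0.0057 ± 0.14, with mouse 281 higher by 0.29 and the others lower.

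Of the BH3-only genes, Bcl2l11 had the only probe set at unadjusted p below 0.05 among the family's 26 tested. This was 1456005_a_at, which read 1504, 1304 and 1226 in the restored-labelled and 1687, 1732 and 1551 in the knockdown-labelled cells. Every knockdown-labelled array lay above every restored-labelled array. The difference was 0.30 ± 0.095, or 1.23-fold with an interval of 1.03 to 1.48, higher in 3 of 3 mice (0.16, 0.41 and 0.34). Its unadjusted p was 0.0342 and its adjusted p 0.799 in limma, so it did not pass, and the adjusted p ran from 0.130 to 1 over 15 alternatives. The difference was 0.19 in the fit with array weights and with each array centred on its median, and 0.28 in the unpaired fit of 5 arrays.

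All 5 probe sets of Bcl2l11 had a mean difference above 0, and 4 of them were higher in every mouse, where 18.6% of all probe sets were. Because they read a single gene, they are not separate evidence. The brightest, 1435448_at, differed by 0.097 ± 0.089 and read 2400, 2149 and 2268 against 2483, 2487 and 2321, so that the groups overlapped. With each array centred on its median, which moves the median of the tested probe sets to -0.086, its difference was -0.0097. Probe set 1435449_at differed by 0.24 ± 0.17, almost all of it from mouse 281 (0.67, beside 0.059 and -0.0045), and gave 0.027 without that mouse. A pair of dim probe sets lay below the filter and were left out of the filtered fit. Probe set 1456006_at read 125.6, 112.9 and 87.9 against 172.6, 155.7 and 173.5, and 1426334_a_at read 36.8, 58.4 and 29.3 against 67.3, 67.7 and 62.9. Neither overlapped between groups, and the mean differences were 0.56 and 0.54, on a scale where the 16 added to each value shrinks changes of dim signals. Groups without overlap on the higher side made up 8.11% of all probe sets. In a limma fit with no filter, 1456006_at and 1426334_a_at had unadjusted p of 0.018 and 0.031 (adjusted p = 0.817 for each). In that limma fit 1456005_a_at had an unadjusted p of 0.065, so the probe sets below 0.05 depended on the filter. Of 45037 probe sets, 2007 were higher at that level without the filter.

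Bad encodes a BH3-only protein that growth factor signalling keeps phosphorylated and away from the guardians. Both of its probe sets were lower in all 3 mice and neither passed. Probe set 1416582_a_at read 2535, 3040 and 2508 in restored-labelled and 2455, 2354 and 2370 in knockdown-labelled cells, a difference of -0.16 ± 0.11 (limma adjusted p = 0.805). The groups did not overlap, but mouse 279 gave -0.37 where the others gave -0.046 and -0.081. Without mouse 279 the difference was -0.063. Probe set 1416583_at read 2347, 2491 and 2276 against 2220, 2202 and 2145, also without overlap, and differed by -0.11 ± 0.083. Its mice gave -0.080, -0.18 and -0.085, and without mouse 279 the difference was -0.082.

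**Figure D3:**
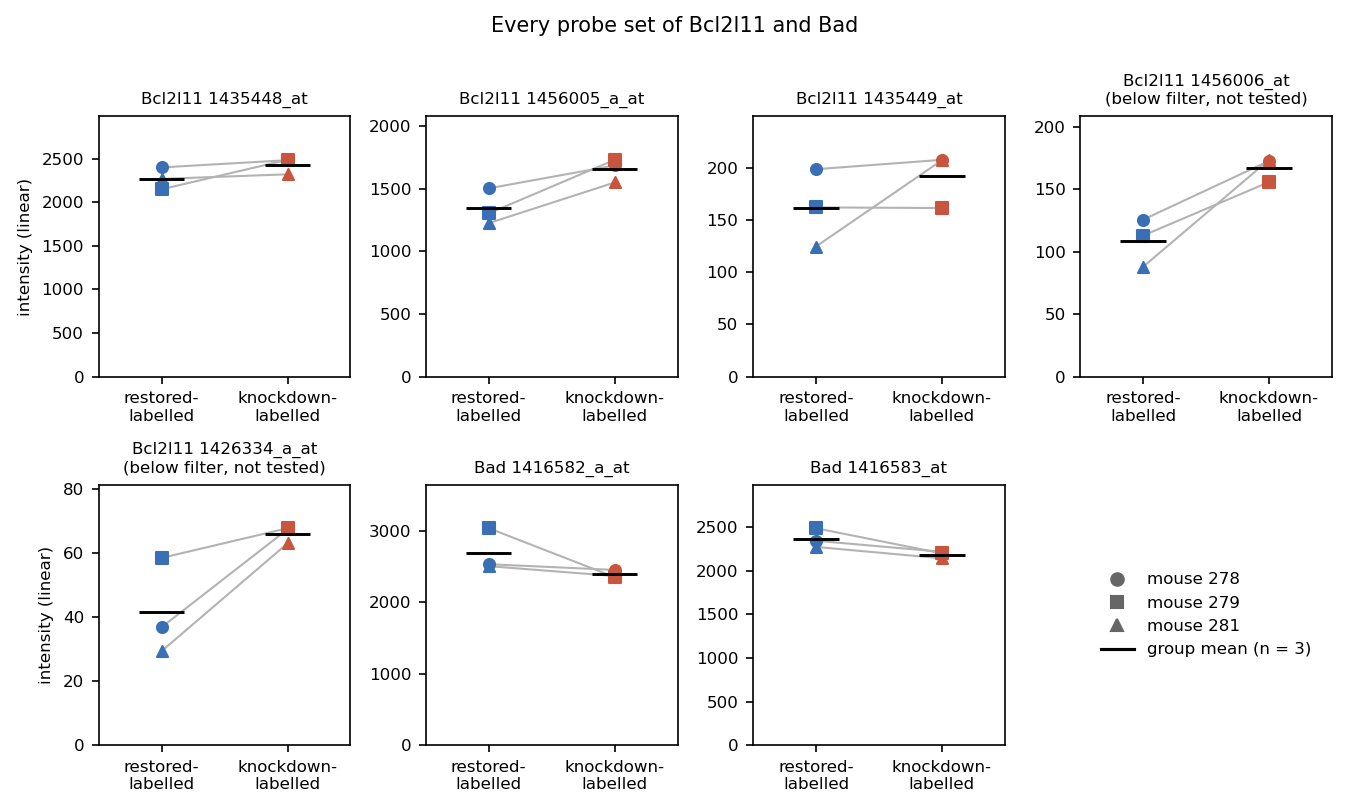
Linear intensity at all 5 probe sets of Bcl2l11 and both of Bad, in restored-labelled (blue) and knockdown-labelled (red) samples, with grey lines joining the samples of a mouse and black bars for means of 3 arrays. The knockdown-labelled mean is higher in each Bcl2l11 panel (1657 against 1345 at 1456005_a_at) and lower in both Bad panels (2393 against 2694 at 1416582_a_at); axes start at 0 and differ between panels.

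Bid, which caspase-8 cuts to link death receptors to mitochondria, had no common direction. Its brightest probe set, 1417045_at, read 4064, 3851 and 4241 against 3727, 3954 and 3570. Mice 278 and 281 were lower and mouse 279 slightly higher, for a difference of -0.11 ± 0.099 (limma adjusted p = 0.830). Probe set 1448560_at read 532, 289 and 435 against 428, 435 and 458, and its difference of 0.11 ± 0.20 was -0.11 without mouse 279. Probe set 1447873_x_at gave 0.0088, 0.40 and -0.70 in the mice, the widest split within Bid.

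Bmf, whose protein responds to loss of anchorage and to cytoskeletal stress, had the largest estimate and the largest error among the tested probe sets of the family. Probe set 1454880_s_at read 87.6, 209 and 210 in restored-labelled and 127, 511 and 180 in knockdown-labelled cells. A single array, the knockdown-labelled one of mouse 279, was far above the rest, and the groups overlapped. The difference of 0.50 ± 0.31 (limma adjusted p = 0.799) was 0.13 without mouse 279 and 0.85 without mouse 281. The neutrophil marker sum was also highest on that array, at 44620 against 15980 in the restored-labelled sample of the same mouse. In the restored-labelled sample of mouse 281 the sum was 40840, while this probe set read 210. The sum of 4 erythroid markers was also highest in the knockdown-labelled sample of mouse 279, at 4220 against 3476 in its restored-labelled sample. The part of these markers in the result was not tested. The other tested probe set, 1458325_x_at, gave 0.020 ± 0.098. Probe set 1422995_at, at 24.9 to 40.8, was below the filter and higher in all 3 mice. Bbc3, the gene of the p53-induced killer PUMA, was read by a single dim probe set at 57.8, 73.7 and 55.8 against 60.2, 61.4 and 58.4, which was not tested and differed by -0.039 on average.

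The medians of guardians and BH3-only members lay close together. Of 14 tested guardian probe sets 9 were higher and 5 lower, with a median difference of 0.013. Of 10 tested BH3-only probe sets 6 were higher and 4 lower, with a median of 0.059. The whole table's median was 0.020. Guardian minus BH3-only medians gave -0.046 for differences averaged over the mice. Taken within mice 278, 279 and 281, the gap was 0.028, -0.14 and 0.083, with a standard deviation of 0.12. Only mouse 279 thus had the sign of the averaged gap. The sign of the averaged gap turned when Bcl2l11 was left out, to 0.11, and without mouse 279, to 0.079. It also turned in the upper 30% of probe sets by mean intensity (0.12), after quantile normalization (0.035), with array weights (0.039) and in the unpaired fit of 5 arrays (0.040). Over all 15 guardian and 14 BH3-only probe sets, dim ones included, the medians were 0.0067 and 0.10, and the gap was -0.0076, -0.14 and -0.0093 in the mice. With 1 mean per gene over its tested probe sets, the 3 guardians had a median of 0.034 and the 4 BH3-only genes one of 0.090. Within the BH3-only class the gene means ran from -0.14 for Bad and -0.033 for Bid to 0.21 for Bcl2l11 and 0.26 for Bmf. The guardians lay closer together, at 0.0023 for Mcl1, 0.034 for Bcl2l1 and 0.096 for Bcl2. Since the members were chosen with results known, no test was made over the classes.

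**Figure D4:**
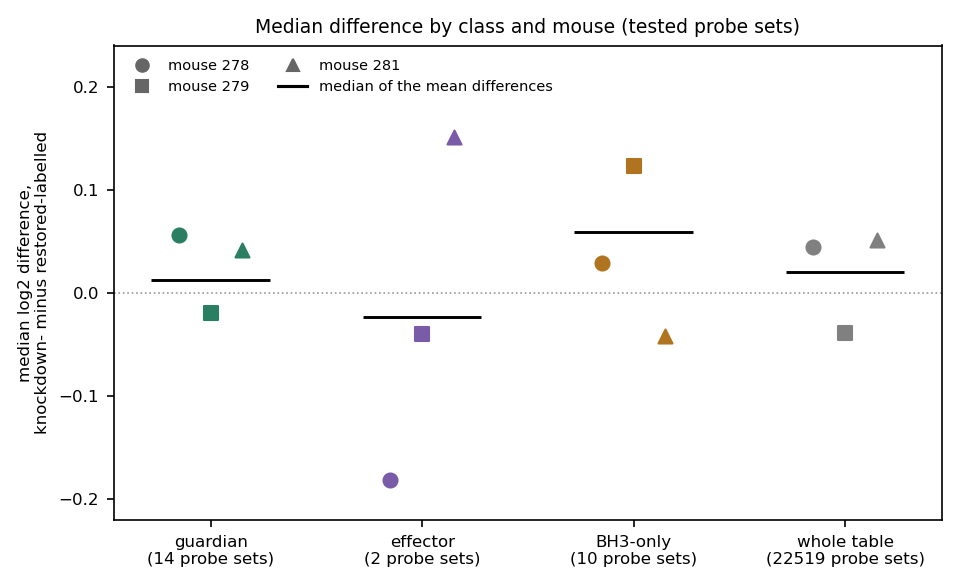
Median log2 difference (knockdown-labelled minus restored-labelled) over the tested probe sets of guardians (14), the effector Bak1 (2), BH3-only members (10) and the whole table (22519). Symbols are the 3 mice and bars the median of the mean differences; BH3-only medians run from -0.042 in mouse 281 to 0.12 in mouse 279 and span those of the guardians, which run from -0.019 to 0.056.

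Profiles over the 6 arrays were compared by the root mean square distance of centred log2 values, over 19330 singly named probe sets. Closest to Bcl2 1457687_at were probe sets of Pip5k1a (0.021) and Lmnb1 (0.023), against a standard deviation of 0.12 for Bcl2 itself. Closest to Mcl1 1456243_x_at were Dtymk (0.0098) and Wdr48 (0.013), and closest to Bcl2l11 1435448_at were Tmem123 (0.014) and Mtpn (0.014). These distances rest on 6 arrays and carry no p.

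The rest of the death pathway showed no gene past the test either. Of 65 listed entries in 6 groups, 47 genes had a tested probe set, the brightest of each being used. Of these 28 were higher and 19 lower, 14 higher in all 3 mice (29.8%) and 6 lower (12.8%), where all 10825 genes tested this way have 19.9% and 12.4%. At adjusted p below 0.05 there were 0, as among all genes (0.0%, limma), and at unadjusted p below 0.05 there was 1, where all genes have 3.10% higher and 1.41% lower. That gene was Foxo1, a transcription factor that can switch on Bcl2l11, at 0.28 ± 0.090 (adjusted p = 0.799, limma). It read 835, 1050 and 822 in restored-labelled and 1077, 1176 and 1018 in knockdown-labelled cells, and was higher in all 3 mice with overlapping groups. The 8 transcriptional regulators tested had a median of 0.042, beside 0.00039 for all genes, and E2f1 stood at -0.10 ± 0.087.

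Among other family members, 4 of 7 were higher with a median of 0.017. The effector-like gene Bok read 369, 539 and 276 against 319, 187 and 332 and gave -0.47 ± 0.37, but 0.025 without mouse 279. Bcl2l12 gave 0.16 ± 0.10, but 0.24 without mouse 278, 0.088 without mouse 279 and 0.019 with array weights. Of 8 genes for turnover and binding of MCL1 and BIM, 6 were higher with a median of 0.051. Fbxw7, a ubiquitin ligase subunit that marks MCL1 for destruction, differed by 0.34 ± 0.12 and Usp9x, which removes such marks from MCL1, by 0.19 ± 0.092. For Fbxw7 the readings were 1929, 1336 and 1953 against 2179, 2030 and 2330, and for Usp9x they were 5330, 4756 and 5440 against 5756, 5938 and 5976. Neither overlapped between groups, as at 9 of the 47 genes and at 15.2% of all. In the unpaired fit of 5 arrays the difference of Fbxw7 was 0.16.

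The apoptosome, caspase and inhibitor group had 8 of 14 higher with a median of 0.025. Htra2, a mitochondrial protease released with cytochrome c, was lower in all 3 mice (-0.18, -0.20 and -0.18; fit -0.19 ± 0.080, limma adjusted p = 0.799), and the caspase inhibitor gene Xiap gave 0.25 ± 0.16. Without mouse 279 the difference of Xiap was 0.068, and without mouse 281 it was 0.39. In the death receptor arm 3 of 5 were higher with a median of 0.068. Cflar, an inhibitor of caspase-8, gave 0.18 ± 0.091 and the receptor gene Tnfrsf1a -0.18 ± 0.087, both the same way in all mice. The 5 outer membrane channel genes had a median of -0.015, with Vdac2, which holds BAK in check, at -0.078 ± 0.083 and Vdac1 at 0.064 ± 0.081.

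**Figure D5:**
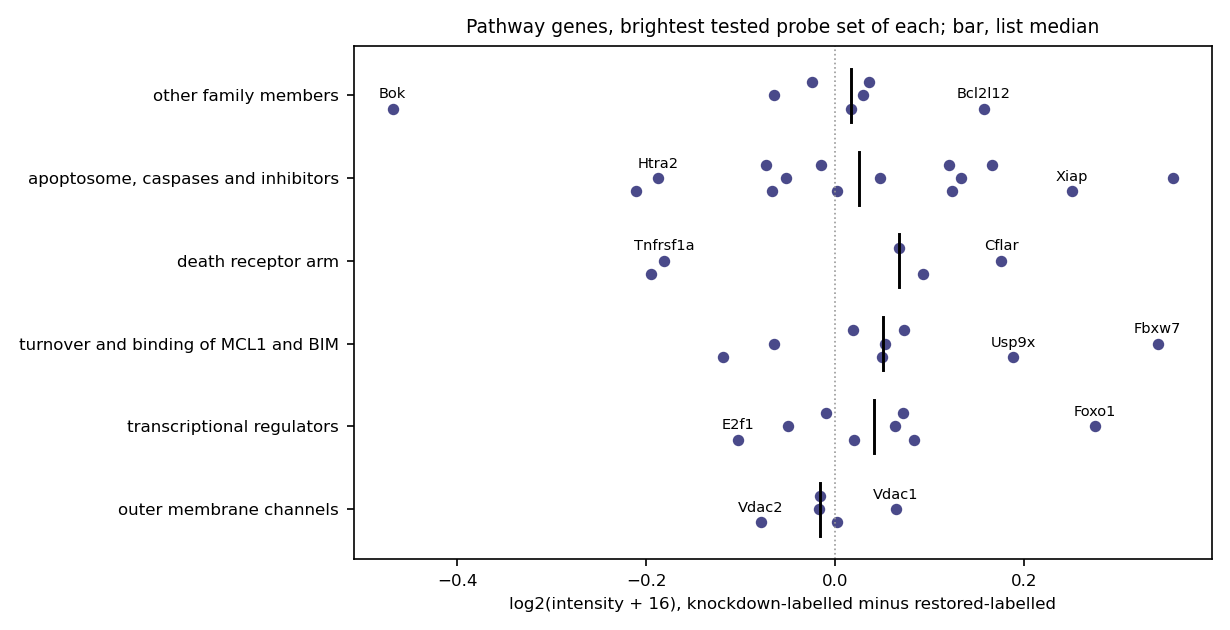
Log2 difference (knockdown-labelled minus restored-labelled) of 47 pathway genes in 6 groups. Each point is the brightest tested probe set of a gene, with vertical offsets for legibility, and bars are group medians, which lie between -0.015 and 0.068; the labelled genes are the pair with the smallest unadjusted p in each group.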

How the data were processed

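The 6 arrays hold intensities of 45101 probe sets, used as deposited by the authors and treated as linear. Their summary, background and scaling steps are not given in the sources used here. RNA was amplified and labelled with NuGEN Ovation V2, per the labels' protocols. Leaving out 64 controls kept 45037 probe sets, of which 34945 have 1 gene symbol in an older probe table, 932 several and 9160 none. Arrays carry no read depth. Precision rests on how many there are and on the spread of each probe set, with standard errors of 0.080 for Htra2 and 0.37 for Bok.

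Values were taken to log2(intensity + 16). Probe sets with a mean at or above the median (149) entered a linear model of limma 3.58.1 (lmFit and eBayes under R 4.3.3), each on its own, with the mouse as a fixed block. Benjamini-Hochberg adjustment ran over the 22519 probe sets. The fit was run on simulated data without a mouse effect, with added changes larger than any mean difference in the family. That run cannot tell how often differences as small as those of the family would be found. The pairing comes from the series' design text, by which both populations of a pair came from a single animal; deviations from the group means correlated at 0.27, -0.077 and -0.21 within mice 278, 279 and 281. Probe sets whose names end in _x_at or _s_at can read several related transcripts. The members and lists were chosen with earlier results of these data known. The named genes are all members with every probe set, Erg, the 2 genes of each pathway list with the smallest unadjusted p and the 2 closest profiles to Bcl2, Mcl1 and Bcl2l11. Figures were drawn with matplotlib 3.10.9.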

Additional observations from a re-analysis of the deposited data

How the results depend on the processing

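No family probe set passed the adjusted threshold under any of 17 alternatives, and the lowest adjusted p was 0.0776 (Bcl2 1440770_at with array weights). The sign turned in 33 of 390 values, at 16 of 26 probe sets. With each array centred on its median, Bcl2 1457687_at stood at -0.10 and 1443837_x_at at -0.017, Mcl1 1437527_x_at at -0.088, 1416880_at at -0.061, 1456381_x_at at -0.10 and 1448503_at at -0.011, Bcl2l11 1435448_at at -0.0097, Bmf 1458325_x_at at -0.087, Erg 1440244_at at -0.083 and Vdac1 at -0.042. Quantile normalization gave -0.0021 for Mcl1 1456381_x_at and -0.076 for Bmf 1458325_x_at. Array weights, whose estimation stopped before it converged, gave -0.012 for Bcl2 1457687_at, 0.14 for Bcl2l1 1420888_at, 0.047 for Mcl1 1456243_x_at and -0.23 for Bid 1448560_at. The 5 arrays without the restored-labelled one of mouse 279 and without the mouse term gave -0.021 for Bcl2 1443837_x_at, 0.027 for Bcl2l1 1420888_at, 0.0076 for Mcl1 1456243_x_at and -0.12 for Bid 1448560_at. The causes were not tested.

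Leaving out each mouse gave ranges of -0.10 to 0.10 for Bcl2 1457687_at, -0.16 to 0.12 for Bcl2 1437122_at, -0.21 to 0.12 for Bcl2l1 1420888_at, -0.13 to 0.017 for Bcl2l1 1426191_a_at, -0.069 to 0.0019 for Mcl1 1456243_x_at, -0.037 to 0.053 for Mcl1 1456381_x_at, -0.071 to 0.014 for Bak1 1418991_at, -0.16 to 0.10 for Bak1 1425716_s_at, -0.11 to 0.32 for Bid 1448560_at, -0.35 to 0.20 for Bid 1447873_x_at, -0.055 to 0.084 for Bmf 1458325_x_at, -0.025 to 0.073 for Erg 1440244_at and -0.83 to 0.025 for Bok. Without mouse 279, Bcl2l1 1420887_a_at stood at 0.12, Bcl2l11 1435448_at at 0.041, Mcl1 1448503_at at 0.050, Bid 1417045_at at -0.19, Usp9x at 0.12, Vdac2 at -0.044 and Erg 1425370_a_at at -0.066.

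The guardian median was -0.094 and the BH3-only median -0.048 with centred arrays, and the BH3-only median was -0.11 and the gap 0.12 in the upper 30% of probe sets, where fewer are tested. The gap also turned sign after quantile normalization (0.035), with array weights (0.039) and with 5 arrays (0.040). Leaving out a mouse gave 0.018 to 0.068 for guardians, -0.011 to 0.080 for BH3-only members and -0.045 to 0.079 for the gap. The count past the adjusted threshold was 0, and 1 with array weights or with 5 arrays. The count higher at unadjusted p below 0.05 (1069) was 699 after quantile normalization, 548 with centring, 2007 with no filter, 657 in the upper 30%, 427 with 1 probe set per gene, 432 with gene means, 4946 with array weights and 414 to 1496 without a mouse, lowest without mouse 278. The count lower (297) was 706, 992, 698, 165, 203, 182 and 1451 in the same order and 161 to 301 without a mouse, again lowest without mouse 278. The higher share of these was 78.3%, but 49.8% after quantile normalization and 35.6% with centring. With no replicate block 972 were higher and 323 lower, and the block changed no call among the members.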
